A study of Bos taurus with 3 samples.

Results

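The 9 genes described here act in cornification and keratinocyte differentiation: *KRTDAP*, *SPINK5*, *A2ML1*, *WFDC18*, *TGM1*, *TGM3*, *PPL*, *EVPL* and *CNFN*. They are a family by function, but they were selected on UMI levels already seen in these same cells, so their levels, order and co-expression are given as a description. Each symbol matched 1 of the 27270 genes listed in the count matrices. They were followed in 21884 epithelial cells out of 31228 deposited barcodes. A barcode counted as an epithelial cell when the basal keratins *KRT5*, *KRT14* and *KRT15* together made up at least 10 of every 10000 unique molecular identifiers (UMIs, the molecule tags that are counted), when it held no UMI of *PTPRC*, *PECAM1* or *COL3A1*, which mark immune, endothelial and fibroblast cells, and when 500 to 4000 genes were detected in it. Barcodes over 50000 UMIs, or with more than 40% of their UMIs from mitochondrial genes, were left out.

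The libraries came from the rumen of 3 newborn dairy calves (calves 1, 2 and 3), sampled 1 day after birth, with 1 droplet library per calf counted at the 3′ end of transcripts. No treatment separated the calves, so they formed 1 group with n = 3, and the adult animals of the study were not analysed here. Calf 1 gave 4637, calf 2 gave 9122 and calf 3 gave 8125 epithelial cells, with a median depth of 10324, 6798 and 8034 UMIs per cell. Epithelial identity was checked on *EPCAM*, which stood at 2.00, 1.58 and 1.21 UMIs per 10000 in these cells and at 0.0654 in pooled fibroblast barcodes. The epithelial marker *CDH1* stood at 0.554 in pooled epithelial cells and 0.0327 in fibroblast barcodes, but at 0.527 in immune barcodes. *DCN*, a fibroblast marker, stood at 3.33 in pooled epithelial cells against 51.0 in fibroblast barcodes. In all, 87 barcode sequences occurred in more than 1 calf.

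The rumen is lined by a stratified squamous epithelium in which cells leave a basal layer, switch from basal to suprabasal keratins and end as flattened cornified cells. During that passage a cornified envelope is built under the plasma membrane: plakins such as periplakin and envoplakin lay down a scaffold, transglutaminases cross-link precursor proteins onto it, and secreted protease inhibitors restrain the proteases that shed the outermost cells. The rumen of a newborn calf does not yet ferment plant fibre, and its epithelium is still immature at birth.

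*KRTDAP* encodes a small secreted protein of differentiating keratinocytes. Its level in the summed epithelial cells, in UMIs per 10000 UMIs as for all levels below, was 0.724 in calf 1, 1.06 in calf 2 and 0.0245 in calf 3 (mean 0.603 ± 0.528 SD, n = 3). Calf 3 lay 43.3-fold below calf 2, and the Poisson intervals of the 3 calves, which cover counting error only, did not overlap (0.701 to 0.748, 1.04 to 1.08 and 0.0210 to 0.0283).

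The 3 genes of protease inhibition followed the same order of calves at the low end. *SPINK5* encodes LEKTI, the inhibitor of the kallikreins that cut corneodesmosomes, and stood at 0.288, 0.462 and 0.0441 in calves 1, 2 and 3. *A2ML1*, a protease inhibitor of the alpha-2-macroglobulin family, stood at 0.173, 0.180 and 0.0305. *WFDC18*, of the WAP domain family that holds several protease inhibitors, stood at 0.126, 0.595 and 0.0817. For each of these genes calf 3 was the lowest, by 10.5-fold for *SPINK5*, 5.89-fold for *A2ML1* and 7.28-fold for *WFDC18* against the highest calf.

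Of the cross-linking enzymes, *TGM1* encodes the membrane-bound keratinocyte transglutaminase and *TGM3* the transglutaminase of late differentiation. *TGM1* was at 0.0815, 0.159 and 0.0297, and *TGM3* at 0.0974, 0.128 and 0.0519. Calf 3 was again the lowest, with a span of 5.35-fold for *TGM1* and 2.47-fold for *TGM3*.

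*PPL* and *EVPL*, which encode the scaffold plakins periplakin and envoplakin, did not share this spread between calves. *PPL* was at 0.0657, 0.0523 and 0.0514, a span of 1.28-fold, and *EVPL* at 0.131, 0.107 and 0.119, a span of 1.22-fold. *CNFN*, which encodes cornifelin of the cornified envelope, rested on few molecules, with 22 UMIs in calf 1, 374 in calf 2 and 15 in calf 3 (0.0043, 0.0521 and 0.00205 per 10000). With 1 group of 3 calves no test of a difference between calves was possible, and in summed cells a smaller share of differentiated cells and less RNA of a gene per cell cannot be told apart.

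**Figure D1:**
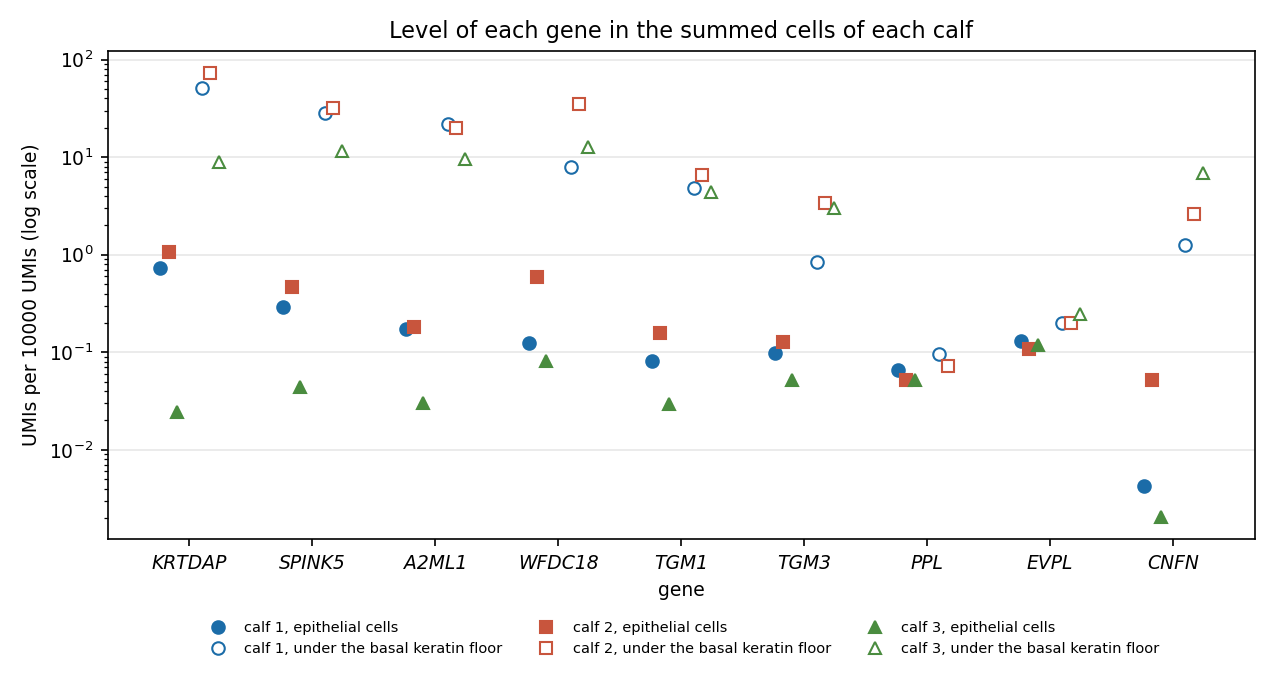
Level of each gene in UMIs per 10000 UMIs (log scale) in the summed cells of calves 1, 2 and 3, with filled symbols for epithelial cells and open symbols for keratin-positive barcodes under the basal keratin floor. *PPL* and *EVPL* lie close together in the 3 calves and in both sets of barcodes, while the other genes lie at least 8.62-fold higher in the open symbols. *PPL* had no UMI in the open set of calf 3 and is not drawn there.

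The basal keratin floor left out much of what these genes produced. A further 101, 117 and 33 barcodes of calves 1, 2 and 3 met every other limit and had at least 10 UMIs per 10000 from a wider set of keratins that also holds *KRT4*, *KRT6A* and *KRT6B*, but under 10 per 10000 from *KRT5*, *KRT14* and *KRT15*. These 251 barcodes were 2.07, 1.10 and 0.315% of the barcodes within the limits on genes, UMIs and mitochondrial UMIs. They held 66.9, 53.1 and 54.3% of the *KRTDAP* UMIs found within those limits, against 29.2, 40.4 and 38.6% in the epithelial cells.

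In each calf the larger share also lay under the floor for *A2ML1* and *SPINK5*, but not for the other genes. For *A2ML1* the share in the barcodes under the floor was 76.5, 63.3 and 50.5%, and for *SPINK5* 74.3, 52.2 and 45.6%. In calf 3 the epithelial cells held 45.2% of *SPINK5*. *WFDC18* had 63.6, 49.2 and 36.1% under the floor against 30.8, 43.7 and 59.1% in the epithelial cells. *TGM1* had 64.1, 39.3 and 34.8% against 32.9, 50.4 and 59.9%. *CNFN* reached 90.5, 46.8 and 90.4%, and *TGM3* 20.7, 27.8 and 16.2%. In calf 2 the epithelial cells held 49.1% of *CNFN*. Of the barcodes under the floor, 99 of 101 in calf 1 and 30 of 33 in calf 3 had no *CNFN* UMI. Its shares in these 2 calves thus rest on very few barcodes. For *PPL* the share was 4.52, 2.36 and 0%, and for *EVPL* 4.63, 3.11 and 0.748%. Most plakin UMIs thus lay in the epithelial cells, which far outnumber the barcodes under the floor. Their level was not restricted to those cells: under the floor it was 1.46-, 1.40- and 0-fold that of the epithelial cells for *PPL*. For *EVPL* it was 1.51-, 1.83- and 2.07-fold.

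In the barcodes under the floor the level of *KRTDAP* was 51.0, 73.0 and 8.85 in calves 1, 2 and 3 (mean 44.3 ± 32.6 SD, n = 3). The mean over calves was 23.9 ± 10.9 for *SPINK5*, 17 ± 6.52 for *A2ML1*, 18.6 ± 14.5 for *WFDC18*, 5.26 ± 1.09 for *TGM1*, 2.42 ± 1.38 for *TGM3* and 3.59 ± 2.96 for *CNFN*. The *CNFN* level came from very few of these barcodes in calves 1 and 3. *PPL* averaged 0.0563 ± 0.0501 and *EVPL* 0.214 ± 0.0279 there. Per calf, the level under the floor was 68.9- to 362-fold that of the epithelial cells for *KRTDAP*, 8.62- to 58.1-fold for *TGM3* and 1.51- to 2.07-fold for *EVPL*.

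The levels on either side of the floor were compared without a test. Barcodes just inside it, with 10 to 15 basal keratin UMIs per 10000, had *KRTDAP* at 35.6 in calf 1 (20 cells), 41.5 in calf 2 (38 cells) and 0 in calf 3 (41 cells). Barcodes just outside, with 5 to 10, had 34.9 (30 cells), 56.8 (53 cells) and 3.19 (22 cells). In calf 2 *SPINK5* was at 19.9 just inside and 29.4 just outside, *A2ML1* at 9.93 and 19.6, and *CNFN* at 0.547 and 2.75. *KRTDAP* was thus close on both sides in calf 1 only, and higher outside in calves 2 and 3. Results below are for the epithelial cells unless the wider keratin floor is named.

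**Figure D2:**
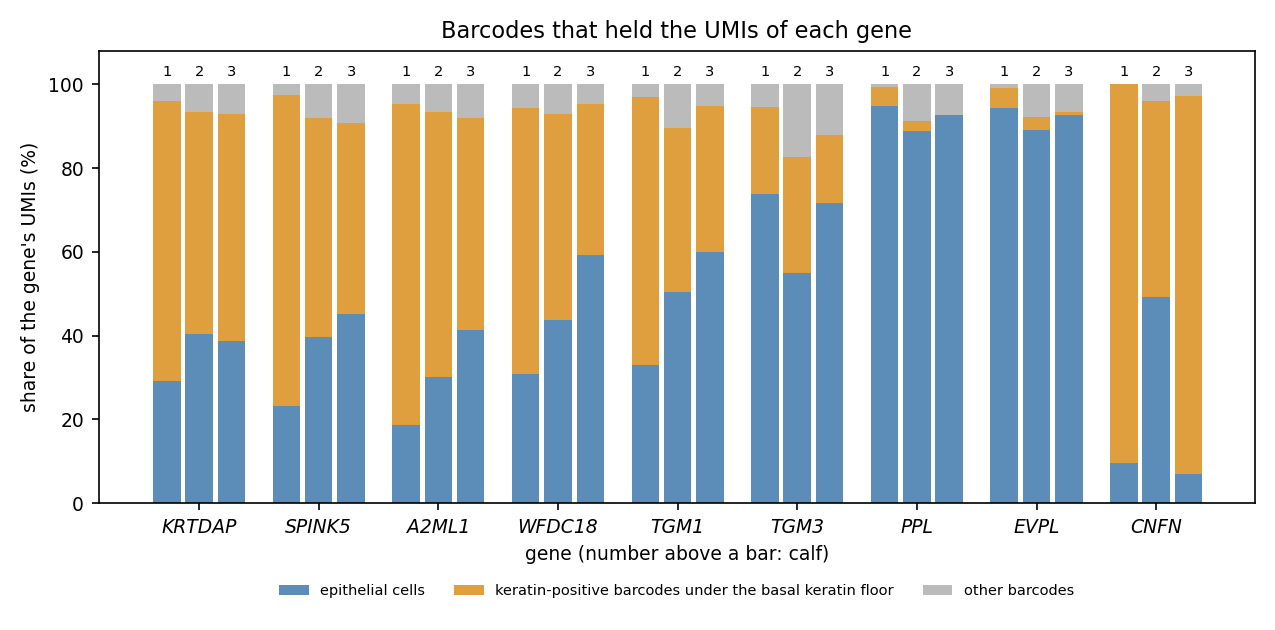
Share of the UMIs of each gene (%, y axis from 0 to 100) that lay in epithelial cells, in keratin-positive barcodes under the basal keratin floor and in other barcodes within the limits, with 1 stacked bar for each calf. *PPL* and *EVPL* lie at 88.9% or more in epithelial cells in every calf, and *KRTDAP*, *SPINK5* and *A2ML1* below 50%.

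Only a small share of epithelial cells carried these transcripts. After each cell was thinned to 2000 UMIs, which left out 140, 243 and 197 shallower cells of calves 1, 2 and 3, at least 1 *KRTDAP* UMI was found in 269 of 4497 cells of calf 1 (5.98%, exact binomial 95% interval 5.31 to 6.72), in 462 of 8879 of calf 2 (5.20%, 4.75 to 5.69) and in 21 of 7928 of calf 3 (0.265%, 0.164 to 0.405). Unthinned, the mean over calves was 9.52% of cells. Endothelial barcodes, which should lack the gene and had a median of 5061 UMIs against 7811 in epithelial cells, showed a *KRTDAP* UMI in 3 of 38, 4 of 252 and 1 of 412 thinned cells (7.89, 1.59 and 0.243%).

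Shares of cells with at least 1 *KRTDAP* UMI in calves 1 and 3 were therefore below or close to the background in endothelial barcodes. A single UMI is thus not read as expression there. The 269 cells of calf 1 include 106 with at least 2 UMIs, which no endothelial barcode had. In calf 1 the comparison rests on 38 endothelial barcodes, and the source of the background was not tested. *SPINK5* was found in 1.93, 2.67 and 0.277% of epithelial and in 0 of 38, 4 of 252 (1.59%) and 1 of 412 (0.243%) endothelial cells. A single *SPINK5* UMI in calf 3 is read in the same way. *WFDC18* was found in 1.93, 3.55 and 0.896% of epithelial cells and in 0 of 38, 3 of 252 and 1 of 412 endothelial cells, but also in 6 of 80 (7.50%) and 3 of 139 (2.16%) fibroblast barcodes of calves 2 and 3 and in 5 of 51 barcodes of calf 2 under both keratin floors (9.80%). *TGM1* was found in 1.60% of the epithelial cells and in 2 of 80 fibroblast barcodes (2.50%) of calf 2, but in only 1 of the 702 endothelial barcodes of the 3 calves. Because of the fibroblast barcodes, a single UMI of *WFDC18* or *TGM1* is not read as expression either. For *TGM1* this rests on 2 barcodes of calf 2, and the source of these UMIs was not tested. With at least 2 UMIs required, *KRTDAP* marked 106 cells (2.36%), 149 cells (1.68%) and 6 cells (0.0757%) of calves 1, 2 and 3 and 0 of 702 endothelial cells. The other genes had at least 2 UMIs in 157 epithelial cells of the 3 calves for *SPINK5*, 130 for *WFDC18*, 83 for *A2ML1*, 47 for *TGM1*, 36 for *TGM3*, 7 for *EVPL*, 6 for *CNFN* and 1 for *PPL*, out of 21304.

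The genes differed in how their molecules were spread over cells. In calves 1, 2 and 3, 0.927, 0.406 and 0.0615% of the epithelial cells held 50% of all *KRTDAP* UMIs, with up to 170, 325 and 40 UMIs in 1 cell. For *SPINK5* it was 0.280, 0.351 and 0.0985% of cells. For *EVPL* 5.87, 3.63 and 4.39% of cells, and for *PPL* 3.17, 1.82 and 2.19%, were needed to hold 50%, and no cell had more than 4 UMIs of either. Low, evenly spread counts of the plakins thus stood beside high counts of the other genes in few cells.

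The order in which the genes came on was read along an axis of keratin switching, the log2 ratio of suprabasal keratins (9 genes found in the files, of which *KRT4* gave 94.5, 82.9 and 73.6% of the UMIs in calves 1, 2 and 3) to basal keratins, which holds none of the 9 genes. Cells of each calf were ranked on this axis, and the position of a gene was the percentile of cells at which 50% of its summed per-cell level had been passed. A gene with an even level along the axis has a position near 50, and the median over 9820 to 10553 genes with at least 100 UMIs was 50.1, 50.2 and 50.1 in the 3 calves. Positions of 90 or more were held by 0.275, 0.598 and 0.521% of these genes.

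*PPL* and *EVPL* were at the level of the median gene, at 55.2, 46.8 and 47.0 for *PPL* (mean 49.7 ± 4.77 SD, n = 3) and 54.5, 56.8 and 46.4 for *EVPL* (52.6 ± 5.44). *CNFN* had a mean of 86.1 ± 23.04 and is taken up below. The other 6 genes lay at the far end. Of these, *TGM3* had the lowest mean, 96.5 ± 2.16, followed by *TGM1* at 97.53 ± 2.15, *WFDC18* at 98.8 ± 0.660, *KRTDAP* at 98.9 ± 0.721, *SPINK5* at 99.3 ± 0.455 and *A2ML1* at 99.4 ± 0.443.

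Neighbours in that order differed by little against their spread: *TGM1* and *TGM3* lay -1.01 ± 3.15 percentiles apart (*TGM3* minus *TGM1*), and in calf 3 *TGM1*, at 95, came before *TGM3*, at 96.7. The order of a pair of genes was the same in the 3 calves for 25 of 36 pairs, and for 27 of 36 with the wider keratin floor. On an axis without *KRT4* it was the same for only 14 of 36. With positions read at 25% of the level it was the same for 21 of 36. There *TGM1* had a lower mean than *TGM3*, and *A2ML1* than *SPINK5*, and the lowest mean of the 6 genes was 80.6. *SPINK5* followed *KRTDAP* in 3 of 3 calves, by 0.479 ± 0.399 percentiles, but with the wider keratin floor it did so in only 1 of 3, and the pair lay 0.031 ± 0.267 percentiles apart. With the basal keratin floor *A2ML1* followed *SPINK5* in 2 of 3 with a tie in calf 1. *CNFN* was at 99.2, 99.7 and 59.5, the last from only 15 UMIs, and with the wider floor it moved to the end of the order at 99.4 ± 0.653. With that floor 219 of its 231 UMIs in calf 1 lay in 3 cells, and 196 of 212 in calf 3 lay in 2 cells.

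Level by level, *KRTDAP* was 0.117, 0.127 and 0.00551 in the lower 50% of the axis in calves 1, 2 and 3, and 24.1, 39.9 and 1.31 in the highest 1% of cells. The endothelial barcodes had 0.234, 0.111 and 0.00769. The lower part of the axis was thus close to or below the level of cells that should lack the gene, and the highest 1% held 33.5, 44.9 and 71.5% of all epithelial *KRTDAP* UMIs. With the wider keratin floor the highest 1% of cells had 74.2, 82.8 and 3.86.

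*A2ML1* rose from 0.0128, 0.0162 and 0.00261 in the lower 50% to 8.91, 8.6 and 1.90 in the highest 1% (31.5, 22.4 and 4.81 with the wider keratin floor), and *TGM1* from 0.0149, 0.0294 and 0.00957 to 3.31, 5.08 and 1.07. *TGM3* showed the broadest rise in calf 1, where it reached 0.195 between percentiles 85 and 90 and 1.04 in the bin below percentile 99, and then stood at 0.758 in the highest 1%. *EVPL* in the highest 1% was 2.22-, 3.17- and 1.78-fold its level in the lower 50%, on 14, 26 and 22 UMIs, and *PPL* was 0.887-, 1.10- and 0.359-fold on 3, 5 and 2 UMIs.

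**Figure D3:**
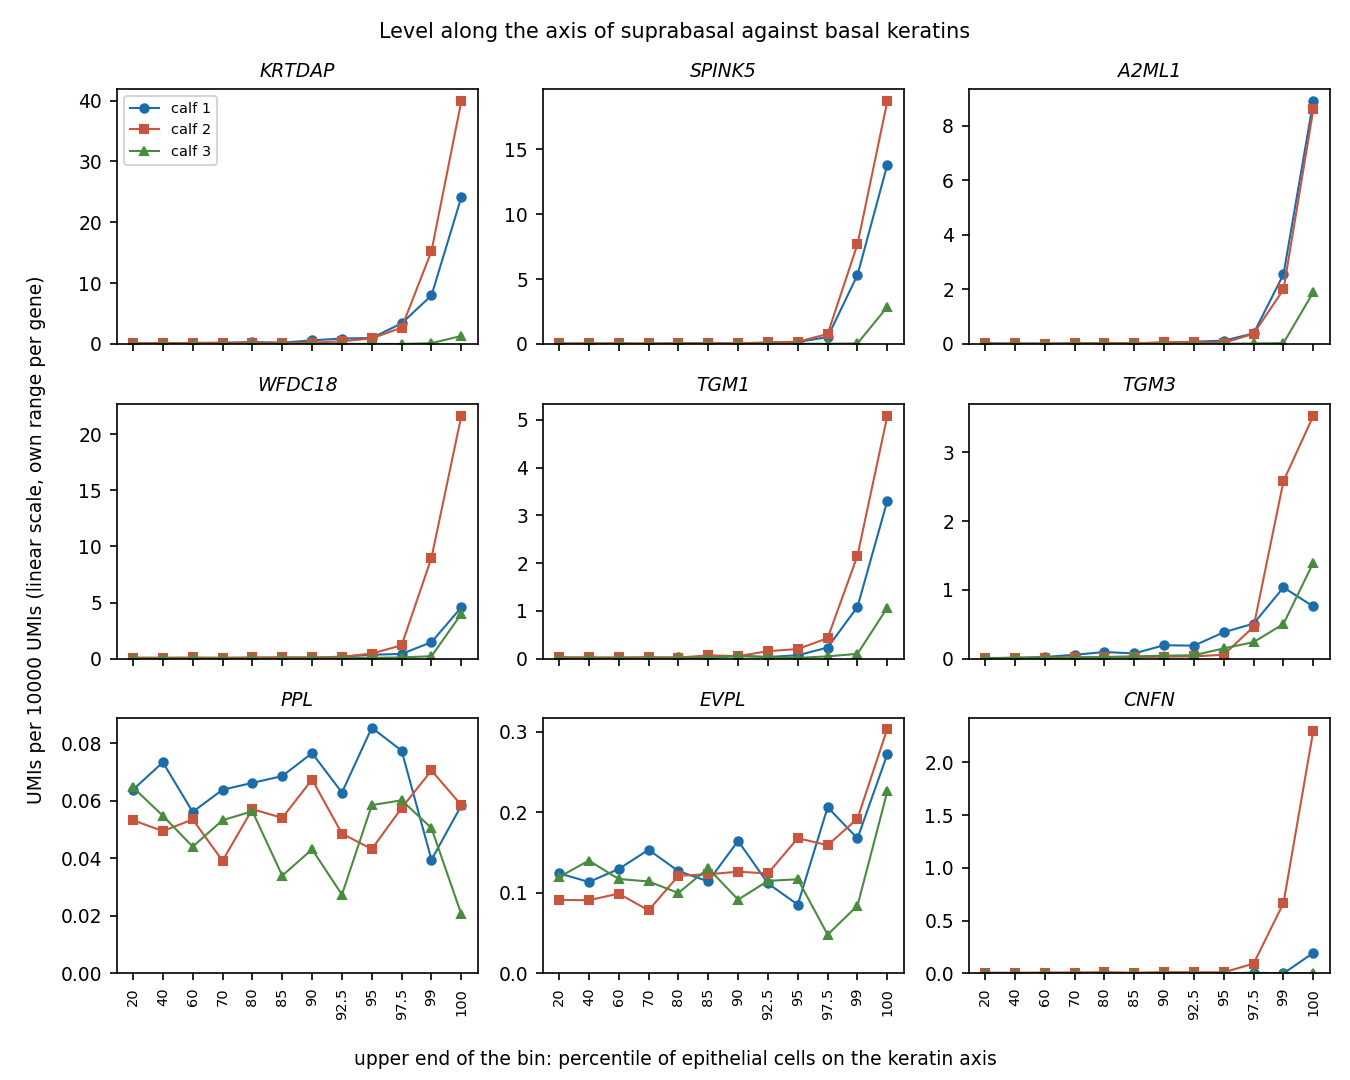
Level of each gene (UMIs per 10000 UMIs, linear scale with its own range for each gene) in 12 bins of epithelial cells ranked from basal to suprabasal keratins, with 1 line for each calf; the x axis gives the upper percentile of a bin, so bins are not equally wide. *KRTDAP*, *SPINK5*, *A2ML1*, *WFDC18* and *TGM1* peak in the highest 1% of cells in the 3 calves, *TGM3* peaks 1 bin earlier in calf 1, and *PPL* keeps within 0.0205 to 0.0853 along the whole axis.

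Co-expression was measured as the log2 odds ratio of finding both genes of a pair in the same thinned cell, with 0.5 added to each count. It rests on single UMIs, so that background detection, given above for *KRTDAP*, *SPINK5*, *WFDC18* and *TGM1*, enters the pairs, and its part in them was not tested. Among *KRTDAP*, *SPINK5*, *A2ML1*, *WFDC18*, *TGM1* and *TGM3* the 15 pairs had a median of 5.31 (means over calves from 3.93 to 7.15), and 15 of 15 were above 0 in each calf. The strongest pair was *SPINK5* and *A2ML1*, at 6.76, 5.89 and 8.80 in calves 1, 2 and 3 (mean 7.15 ± 1.49). Both were found in 123 cells against 5.24 expected from their separate shares.

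Looked at from *SPINK5*, *A2ML1* was present in 43.7, 32.1 and 40.9% of *SPINK5*-positive cells and in 0.703, 0.787 and 0.152% of the remaining cells. *KRTDAP* was present in 64.4, 50.2 and 18.2% of *SPINK5*-positive cells, and in 4.83, 3.97 and 0.215% of the remaining cells. The weakest of the 15 pairs was *KRTDAP* and *TGM3*, at 3.41, 3.90 and 4.47, with 57 cells against 7.56 expected. In calf 3 the pairs rest on as few as 2 cells.

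The plakins stood outside this block. *PPL* and *EVPL* with each other had log2 odds ratios between -0.55 and 1.01 (mean 0.07 ± 0.83), with 6 cells against 6.14 expected. Their 12 pairs with the 6 genes above had a median of 0.76, and 5 of the 12 were above 0 in each calf. With *KRTDAP*, *SPINK5*, *A2ML1*, *WFDC18*, *TGM1* and *TGM3*, *PPL* shared 6, 2, 1, 4, 3 and 4 cells. Expected were 8.75, 3.94, 2.69, 5.31, 2.38 and 2.09. *EVPL* shared 28, 16, 11, 18, 8 and 4, against 18.7, 8.41, 5.79, 11.5, 5.12 and 4.66 expected. The 0.5 added to each count raises pairs with few shared cells, so a mean just above 0 is not read as co-expression. *EVPL* was above 0 in each calf with *KRTDAP*, *SPINK5*, *A2ML1* and *TGM1* (means 1.15, 1.19, 1.17 and 0.98), but not with *WFDC18* and *TGM3*. These means lie below the lowest of the 15 pairs above (3.93), on as few as 1 shared cell in a calf, and were not tested. *EVPL* with *KRTDAP* was at 0.60, 0.64 and 2.22, and *PPL* with *WFDC18* at -0.09 ± 0.52. *CNFN* was found in only 1 thinned cell of calf 1 and 3 of calf 3. None of these held another of the genes, too few cells to read an absence from. In calf 2, 13 of its 27 cells held *KRTDAP* and 13 held *SPINK5*.

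**Figure D4:**
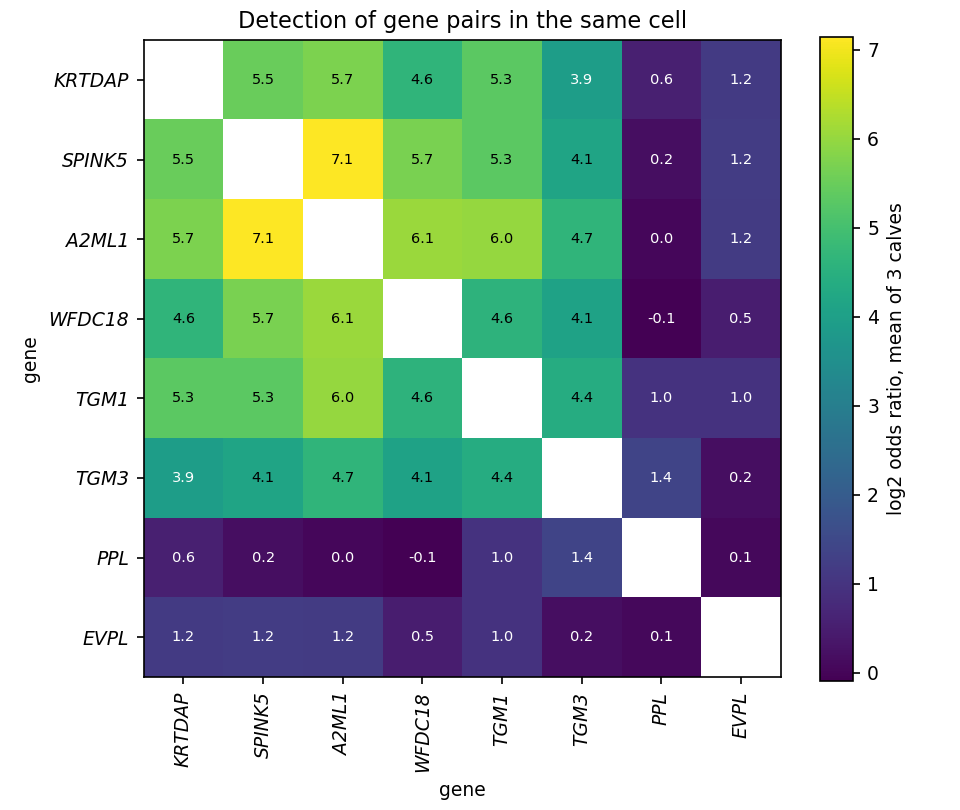
Mean over 3 calves of the log2 odds ratio for detecting 2 genes in the same thinned epithelial cell, by colour and by the number in each square. The 6 genes from *KRTDAP* to *TGM3* form a block between 3.93 and 7.15, whereas the pairs of *PPL* and *EVPL* lie between -0.09 and 1.39. *CNFN* is left out because it was found in only 1 and 3 thinned cells of calves 1 and 3, none of them with another of the genes.

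Counted per cell over *KRTDAP*, *SPINK5*, *A2ML1*, *WFDC18*, *TGM1*, *TGM3* and *CNFN*, 63 epithelial cells of calf 1 (1.40%), 131 of calf 2 (1.48%) and 10 of calf 3 (0.126%) carried at least 3 of the 7. None of the 702 endothelial barcodes did. Under the basal keratin floor the share was 83.8, 87.0 and 55.2% of the thinned barcodes, 236 in all. Cells with at least 3 of the 7 genes were thus rare in the epithelial set and common among the barcodes it left out, in each calf.

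Which other genes went with *KRTDAP* was tested between cells with at least 2 and cells with 0 *KRTDAP* UMIs, on counts of thinned cells summed per calf, with the calf as a block and edgeR's quasi-likelihood test adjusted by the Benjamini-Hochberg method over all genes. The positive side held 106, 149 and 6 cells. Of 9470 genes, 571 (6.03%) had an adjusted p under 0.05, 262 of them higher (2.77%) and 309 lower (3.26%) in the positive cells. Without calf 1 the count was 175, without calf 2 it was 87 and without calf 3 it was 779, and the calls of lower genes fell to 15 and 14 without calves 1 and 2, against 398 without calf 3.

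Beside the 6.03% of all genes called, 5 of the 7 other family members that could be tested passed, but the family was put together with such results known, so nothing is read from this count. *SPINK5* stood at 885, 1648 and 354 CPM (counts scaled to a common library size by edgeR's TMM factors) in the positive cells of calves 1, 2 and 3 and at 5.42, 11.5 and 1.63 in the negative cells. *SPINK5* differed by 7.33 ± 0.43 on the log2 scale (± SE, as for all log2 differences), *A2ML1* by 7.19 ± 0.41, *TGM1* by 6.37 ± 0.38, *WFDC18* by 6.05 ± 0.42 and *TGM3* by 4.87 ± 0.39. *EVPL* differed by 1.22 ± 0.50 and *PPL* by -0.21 ± 0.89, and both missed the threshold. *CNFN* was too low to be tested.

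Among genes outside the family, the 10 with the greatest positive difference were led by *ARG1*, the urea-forming arginase, at 59.7, 273 and 44.3 CPM in positive against 0.925, 1.85 and 0.136 in negative cells (log2 difference 6.92). *GJB2*, which encodes connexin 26 of gap junctions, was at 303, 674 and 177 against 6.21, 10.3 and 4.88 CPM (5.76). *GSTA1*, a glutathione transferase, was at 279, 31.7 and 221 against 5.15, 2.15 and 6.71 CPM (5.10). The others, between 5.04 and 6.89, were *TMPRSS11BNL*, *C7H5orf46*, *PDLIM2*, *PHGR1*, *CLIC3*, *BPIFA2C* and *BREH1*. A higher value in each of the 3 calves was a condition for naming them, and *IVL*, at 5.83 but with no UMI in the positive cells of calf 3, was left out by it. In those 6 cells 1 UMI is worth 44.3 CPM, so *ARG1* and *PDLIM2* met the condition there with 1 UMI. *TMPRSS11BNL* and *CLIC3*, at 88.5 CPM there, also rest on very few UMIs.

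The 10 genes with the greatest negative difference were *ZBTB16*, *IFI6*, *IFI27*, *IRF1*, *SMOC2*, *DCN*, *SOX4*, *GRASP*, *IGFBP5* and *CAV1*, between -4.01 and -3.12. *IGFBP5*, an insulin-like growth factor binding protein, was at 39.8, 39.6 and 0 CPM in positive and 473, 249 and 312 in negative cells. *DCN*, the proteoglycan decorin, was at 29.8, 91.1 and 0 against 529, 559 and 298 CPM. All 10 were at 0 in the 6 positive cells of calf 3, whose summed library held 12000 UMIs, so that 1 UMI is worth 44.3 CPM there, and 9 of the 10, all but *DCN*, lost the call when 1 of the calves was left out.

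The positive cells also differed in other readouts. Their median position on the keratin axis was 98.1, 98.7 and 99.6, against 47.8, 48.4 and 49.8 in negative cells. Their median mitochondrial share was 9.72, 11.1 and 9.92% against 5.25, 5.52 and 5.62%, and their median depth 12578, 10596 and 10563 against 10443.5, 6841 and 8111 UMIs. With cells limited to 10% mitochondrial UMIs, 194 genes were called. The part of depth and mitochondrial share in the differences was not tested further. *MKI67*, a marker of cycling cells, was found in 12 of the 106 positive cells of calf 1 (11.3%) and in none of the 149 and 6 of calves 2 and 3, against 7.76, 1.2 and 3.43% of the negative cells. The zeros rest on few cells, and no difference was tested.

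Markers of other cell types were low on both sides. The 5 immune markers summed to 0.189, 0 and 0.833 UMIs per 10000 in the positive and 0.0934, 0.226 and 0.440 in the negative cells of calves 1, 2 and 3, and the 5 endothelial markers to 0, 0.101 and 0 against 0.0520, 0.200 and 0.101. *PTPRC*, *PECAM1* and *COL3A1* were at 0 by the choice of cells. Of the fibroblast markers *DCN* alone was abundant, with the remaining 4 summing to at most 0.0943 on either side. Leaving out cells with a UMI of *CLDN5*, *PLVAP*, *VWF* or *CDH5* gave 431 called genes.

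A second comparison used cells chosen without any of the 9 genes: the highest 5% on the keratin axis (232, 457 and 407 cells of calves 1, 2 and 3) against the lower 50%, on unthinned sums with the same test. Of 11382 genes, 3181 (27.9%) were called, 1525 higher (13.4%) and 1656 lower (14.5%) in the keratin-high cells. Against that background of 27.9%, 6 of the 8 family members tested passed, and they were again chosen with results of these data known.

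*KRTDAP* was at 851, 1532 and 34.0 CPM in the keratin-high and 11.3, 14 and 0.499 CPM in the keratin-low cells (log2 difference 6.43 ± 0.18). *A2ML1* differed by 7.45 ± 0.17, *SPINK5* by 7.42 ± 0.15, *TGM3* by 6.46 ± 0.31, *WFDC18* by 6.27 ± 0.16 and *TGM1* by 5.81 ± 0.22. In 3 of 3 calves each of these 6 genes was higher in the keratin-high cells, and the values of the sides did not overlap.

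*EVPL* was at 20.8, 22.0 and 9.51 CPM against 11.9, 10.6 and 11.5, higher in 2 of 3 calves (0.57 ± 0.25, adjusted p of 0.132 in edgeR; 0.93 and past the threshold without calf 3), and *PPL* differed by -0.0071 ± 0.22, with an adjusted p of 0.990. The sign for *PPL* changed with the setting, between -0.14 without calf 2 and 0.21 with the wider keratin floor in this comparison. The median log2 difference of all genes was -0.24 in the *KRTDAP* comparison and -0.04 in this one.

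**Figure D5:**
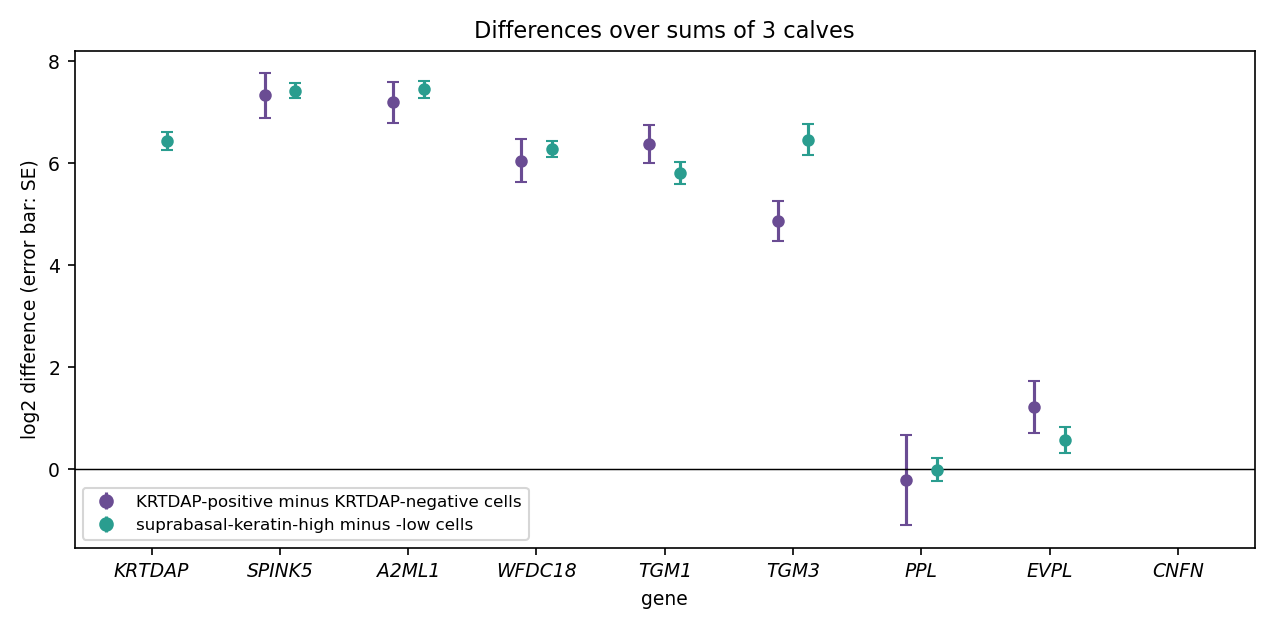
Log2 difference of each gene between *KRTDAP*-positive and -negative cells and between suprabasal-keratin-high and -low cells, from counts summed in each of 3 calves, with the standard error as the bar. The genes from *SPINK5* to *TGM3* lie between 4.87 and 7.45 and the plakins between -0.21 and 1.22. *KRTDAP* defines the first comparison and *CNFN* was too low to be tested in either.

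Outside the family, the 10 genes with the greatest positive difference along keratin switching were *TMPRSS11BNL*, *GSTA1*, *C7H5orf46*, *PHGR1*, *IVL*, *GJB2*, *RBP2*, *BPIFA2C*, *BREH1* and *GJA1*, between 5.13 and 7.47. The comparison draws on the same calves as that of *KRTDAP*, so the names shared by both are not independent. *IVL*, which encodes the envelope precursor involucrin, was at 169, 72.1 and 14.5 CPM in keratin-high and 2.17, 0.600 and 0.315 in keratin-low cells (6.33). *GJA1*, connexin 43, was at 280, 437 and 169 against 5.62, 23.9 and 3.23 CPM (5.13).

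The 10 lowest, between -3.38 and -2.15, were *DCN*, *RGS4*, *IRF1*, *DLK2*, *S100A13*, *LFNG*, *SMOC2*, *SOX4*, *CCN2* and *P3H2*. *DLK2*, a Notch-pathway ligand homologue, was at 9.25, 78.8 and 67.3 CPM in keratin-high against 127, 367 and 224 in keratin-low cells. *LFNG*, which glycosylates Notch receptors, was at 5.29, 12.4 and 28.8 against 66.5, 74.7 and 75.5 CPM.

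The keratin-high cells carried more endothelial marker UMIs, with the 5 markers at 0.0227, 0.342 and 0.395 per 10000 against 0.00952, 0.0610 and 0.0441, and *PLVAP*, *CLDN5* and *VWF* called higher. Immune markers were at 0.0227, 0.0876 and 1.76 against 0.127, 0.166 and 0.312, so only calf 3 was higher in the keratin-high cells. Without cells holding a UMI of *CLDN5*, *PLVAP*, *VWF* or *CDH5*, 3246 genes were called.

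Further genes of the pathway were counted from set lists, which were drawn up with earlier results of these data known, with the *KRTDAP* comparison first and the keratin comparison second. Medians of log2 differences over each list stand beside -0.24 and -0.04 for all genes tested. Counts stand beside 2.77% higher and 3.26% lower of all genes in the first comparison, and 13.4% and 14.5% in the second. A count near or below these shares is not read as a result of its list. Of the cornified envelope precursors and genes of the epidermal differentiation complex, 4 of 7 and 9 of 9 tested entries were higher and none was lower (medians 1.99 and 3.60). *CSTA*, a cysteine protease inhibitor built into the envelope, differed by 6.11 and 5.51, and *IVL* by 5.83 and 6.33. The smallest differences were those of *LY6D* in the first (-0.12, not past the threshold) and of 1 of the 2 entries of *CSTB* in the second (0.74). Only 15 of the 32 listed symbols, which include loricrin, filaggrin and the small proline-rich proteins, occur in the files.

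Desmosome genes, which hold the suprabasal layers together, were higher in 7 of 11 and 10 of 12 (medians 1.12 and 1.39). *DSG1*, the desmoglein of upper layers, differed by 4.29 and 5.03, and *DSC2* by 2.92 and 3.02. *DSG2*, the desmoglein of less differentiated cells, differed by -1.64 without passing and was lower by the test in the keratin comparison, at -1.08.

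In the list of other cross-linking and scaffold genes, 0 of 2 and 2 of 3 were higher and 1 of 3, *TGM2*, was lower in the keratin comparison. *TGM2*, the tissue transglutaminase, differed by -2.77 there. In the first comparison it had no UMI in the positive cells of any calf, against 14.1, 8.93 and 10.85 CPM in the negative cells, and missed the threshold. *TGM5*, a transglutaminase of the upper epidermis, differed by 3.72 in the keratin comparison.

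Among proteases and their inhibitors 5 of 13 and 9 of 13 were higher and 1 of 13 in each was lower (medians 0.91 and 0.85). *SERPINB2* differed by 5.04 and 4.04, and *SPINK9*, a kallikrein inhibitor related to *SPINK5*, by 4.99 and 4.65. *CTSV*, a lysosomal cathepsin, was the lower gene in each, at -1.28 and -0.65. Of the barrier lipid genes 2 of 6 and 6 of 12 were higher (medians 1.50 and 1.39), with *FABP5*, the epidermal fatty acid binding protein, at 1.90 and 3.44 and *ELOVL4*, which makes very long chain fatty acids, at 4.03 in the keratin comparison.

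The basal and anchoring genes were lower in 9 of 14 and 11 of 12, and 1 in each was higher (medians -1.63 and -1.09). *LAMB3*, a laminin chain of the basement membrane, differed by -2.74 and -1.96. *POSTN*, which encodes the matrix protein periostin, went the other way at 1.67 and 2.52. Of the immediate-early and heat-shock genes 0 were higher in either, and 5 of 11 and 6 of 11 were lower (medians -1.09 and -1.0), with *FOS* at -1.85 and -1.62.

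Of the transcription factors of stratified epithelia 8 of 20 and 9 of 22 were higher (medians 0.92 and 0.17). *GRHL3* differed by 3.79 and 4.78 and *ZNF750* by 3.25 and 4.14, both factors of terminal epidermal differentiation. *KLF4*, a factor of barrier formation, was the 1 lower, at -0.89 in the keratin comparison. Of the S100 genes 4 of 9 and 7 of 9 were higher (medians 0.72 and 1.26), led by *S100A8*, a calprotectin subunit, at 4.08 and 4.48, and *S100A4* was lower in the first, at -1.42.

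Gap and tight junction genes were higher in 2 of 9 and 5 of 10 (medians 0.36 and 0.65), with *GJB2* at 5.76 and 6.26, and 2 of 10 were lower in the keratin comparison, among them *CLDN1*, a claudin of tight junctions, at -1.0. Of the 10 proliferation genes 0 were called in the *KRTDAP* comparison by edgeR, of which 3 (*PCNA*, *TYMS* and *MCM5*, all lower) had an unadjusted p under 0.05, and 1 of 10, *TYMS* at -0.70, was lower in the keratin comparison (medians -0.09 and 0.51). The suprabasal keratins, which define the keratin axis, were counted only against *KRTDAP*, where 4 of 5 were higher (median 3.80), with *KRT6B* at 5.02 and *KRT10* at 0.39 without passing, and *KRT23*, which is not part of the axis, was higher by 1.84 in the keratin comparison.

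Cell by cell, the genes most like a family member were sought among 8230 genes by Pearson correlation across thinned epithelial cells within each calf, a description in which cells of 1 library share their depth. For *KRTDAP* they were *C7H5orf46* (r = 0.481, 0.555 and 0.314 in calves 1, 2 and 3) and *PHGR1* (0.489, 0.500 and 0.223). The same 2 genes stood among the 3 nearest to *SPINK5*, *A2ML1* and *WFDC18*, and *PHGR1* among those nearest to *TGM1* (mean r = 0.30). *TGM3*, *PPL*, *EVPL* and *CNFN* had no gene with a mean r of 0.3 or more, and for *PPL* and *EVPL* the highest was 0.0399 and 0.0456.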

How the data were processed

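Rumen tissue of 3 newborn calves was dissociated after the outer muscle layer had been stripped, and 1 Chromium Single Cell 3′ v3 library was made per calf. The deposited values are raw UMI counts per gene and barcode, which the authors produced with Cell Ranger 3.1.0 against the bovine build ARS-UCD1.2. The libraries held 7529, 12043 and 11656 barcodes with 82263092, 89803289 and 106145091 UMIs, and 0 columns of the matrices were left unused. No genome of that build was used here, so positions and sequences are not given.

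The genes, the other gene lists and the comparisons were chosen with earlier results of these data known. The study removed doublets with DoubletFinder. Here the limits on genes and markers stood in for this, and Scrublet served as an alternative. The limits of 50000 UMIs and 40% mitochondrial UMIs, on 13 mitochondrial genes, were added to the rule for epithelial cells and took 22046 cells to 21884. Endothelial barcodes, used for background, had at least 2 *PECAM1* UMIs, no *PTPRC* or *COL3A1* UMI and under 10 basal keratin UMIs per 10000. Exact Poisson and Clopper-Pearson 95% intervals cover counting error only. The calf was the replicate (3 calves, 1 library each). Levels, shares, positions and odds ratios carry no test, since a paired exact permutation test of 3 calves cannot go below p = 0.25.

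For the 2 comparisons between cells, UMIs were summed per calf and side and fitted with edgeR 4.0.16 (TMM factors, filterByExpr, glmQLFit and glmQLFTest) in R 4.3.3, with the calf as a block because both sums came from the same animal. Genes were called at an adjusted p under 0.05, and genes used to choose the cells were left out of the counts. The SE is the log2 difference divided by the square root of F. *KRTDAP* cells were chosen on the same counts that were then tested, after thinning to 2000 UMIs. The scripts were tested on simulated counts with known changes. Genes named from the fits were the 10 with the largest positive and negative log2 differences among called genes with a symbol, a mean of at least 50 CPM on 1 side and the same direction in 3 calves, without members of the family. Genes like a member were the 3 with the highest mean r over calves, named at 0.3 or more, among genes with a UMI in at least 1% of thinned cells. From the lists, those with the largest and the smallest differences were named, and a few more after their values were seen. A result for a gene of the gap and tight junction list is not reported here. Alternatives covered the keratin floor, the cell limits, doublets, thinning, the axis, DESeq2 1.42.0 and the calf left out.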

Additional observations from a re-analysis of the deposited data

Results flagged for a closer look

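Signal of the family was also present in barcodes that the comparisons did not use, above the level of the endothelial barcodes. In the 251 keratin-positive barcodes under the basal keratin floor, the mean level over calves, in UMIs per 10000, was 44.3 for *KRTDAP* (endothelial mean 0.118), 23.9 for *SPINK5* (0.0288), 17 for *A2ML1* (0.0300) and 18.6 for *WFDC18* (0.0735). It was 5.26 for *TGM1* (0.00825), 2.42 for *TGM3* (0.00953), 3.59 for *CNFN* (0.00825) and 0.214 for *EVPL* (0.00128).

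The 1361 barcodes with more than 4000 detected genes, of which 705, 147 and 509 came from calves 1, 2 and 3, had a median of 27951 UMIs. Their mean level over calves was 2.28 for *KRTDAP*, 0.893 for *SPINK5*, 0.600 for *A2ML1* and 1.76 for *WFDC18*. It was 0.387 for *TGM1*, 0.522 for *TGM3*, 0.0547 for *PPL* (endothelial mean 0.00617) and 0.138 for *EVPL*. The calves spread widely there, from 0.435 to 5.01 for *KRTDAP*.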

How the results depend on the processing

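The summed level of the 9 genes (1.64 ± 1.18 UMIs per 10000) was 3.98 with the wider keratin floor and 1.06 to 2.24 with 1 calf left out. The share of cells with at least 1 of the genes (10.5%) was 16.8% when thinned to 4000 UMIs, 29.9% unthinned and 9.09 to 12.9% with 1 calf left out. The median log2 odds ratio of pairs, *CNFN* included (4.15), was 4.68 with the wider floor and 3.97 to 4.36 with 1 calf left out. It was 4.6 thinned to 1000 UMIs, 3.08 thinned to 4000 UMIs and 8.06 with at least 2 UMIs. The constant added to each count raises pairs with few or no shared cells, such as *TGM1* and *CNFN* in calf 1 (5.06, no shared cell). With at least 2 UMIs only 1 epithelial cell held *PPL*, 7 held *EVPL* and 6 held *CNFN*. The 8.06 is therefore not read as stronger co-expression. The median position (97.9) was 95.4 on an axis of basal keratins alone, 96.4 without *KRT4*, 91.9 for 25% of the level and 97.4 to 98.5 with 1 calf left out. The first bin at 50% of the highest level began at percentile 99 (99 to 99 with 1 calf left out), at 98.5 with no upper gene limit, at 98 on the basal keratin axis and at 95 with 20 bins.

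The *KRTDAP* comparison, with 571 genes, called 249 with at least 5 UMIs, 194 at 10% mitochondrial UMIs (added after seeing the data, as was the endothelial marker limit), 274 with DESeq2, 141 thinned to 1000, 1207 thinned to 4000 and 1582 with the wider floor, and 87 to 779 with 1 calf left out. The keratin comparison, with 3181 genes, called 1974 to 2767 with 1 calf left out, the lowest without calf 2. Pairing comes from the design, since both sums were from 1 animal. With no replicate block 293 and 494 genes were called, and *KRTDAP* itself (6.55) missed the threshold in the keratin comparison. The cause of these changes was not tested, beyond the smaller number of cells or calves in some.

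*PPL* changed sign without passing the threshold. In the *KRTDAP* comparison it was 0.16 without the UMI and mitochondrial limits, 0.0092 with DESeq2, -0.94 to 0.29 with 1 calf left out and 0.080 thinned to 4000. In the keratin comparison it was 0.17 at 10% mitochondrial UMIs, 0.050 without the UMI and mitochondrial limits, 0.018 with DESeq2 size factors, 0.0016 with no replicate block, 0.013 with DESeq2, -0.14 to 0.11 with 1 calf left out (0.031 without calf 1), 0.054 without endothelial marker UMIs and 0.21 with the wider floor. *PPL* and *EVPL* had the lowest mean positions in each of 9 settings. A gene with an even level along the axis has such a position, so no early onset is read from it. The pairs ordered alike in 3 calves ranged from 14 of 36 on the axis without *KRT4* to 27 of 36 with the wider floor.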

Other observations

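A small set of cells with high *CNFN* was looked at after the values had been seen, so it carries no test. With the wider keratin floor, 27 cells had at least 5 *CNFN* UMIs, 3 in calf 1, 22 in calf 2 and 2 in calf 3, and 27 of 27 held a UMI of *KRTDAP* and of *SPINK5*. Levels below are means over calves in UMIs per 10000, set beside the 226 barcodes under the basal keratin floor that had no *CNFN* UMI. The sets also differ in basal keratins, since 2, 10 and 2 of the *CNFN* cells of calves 1, 2 and 3 lay under that floor and the others above it. In calf 2 *KRT15* was at 15.4 in the *CNFN* cells against 2.73.

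*KRT78*, a type II keratin, was at 81.9 ± 49.5 (SD, n = 3) against 1.22, and *LYZ1*, a lysozyme, at 121 ± 97 against 0.508. *HOPX*, a homeodomain factor of late keratinocyte differentiation, was at 20.0 against 0.430 and *SBSN* (suprabasin) at 10.9 against 0.483. *CRNN* (cornulin) was at 0, 1.68 and 19.8 in calves 1, 2 and 3, the last from 1 of 2 cells, against 0.0185, 0.150 and 0. *GJA1* was at 0.855 against 6.91, *FABP5* at 9.53 against 25.8 and *SELENBP1* at 0.239 against 6.74. None of the 27 cells was called a doublet by Scrublet, and 22 of the 27 came from calf 2.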
